A study of Mus musculus with 8 samples.

Results

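The 9 genes described here are S100a8, S100a9, Ngp, Retnlg, Camp, Ltf, Cxcr2, Csf3r and Il1b, a group associated with neutrophils and their granules. They are 9 of 25655 gene rows in the count table, of which 16368 had at least 1 read. They were picked by name after their read totals in sepsis and control had been seen, so the contrast between the groups is given for them as a description, with no test. The tissue was the gastrocnemius, a calf muscle, of male wild-type (WT) mice at day 4. The 5 control libraries came from mice given 10% glycerol. The 3 septic libraries came from mice that received cecal slurry, which carries gut bacteria into the abdomen and produces polymicrobial sepsis. Whether the libraries came from separate animals was not given in the labels, so the tests cover the spread among these libraries, which may be technical. Libraries held 3086277 to 4016329 counts in controls and 3337851 to 3765726 in sepsis. Levels are in CPM, reads scaled to a common library size with TMM (trimmed mean) factors. Here 1 read was worth 0.313 CPM in an average control library and 0.234 CPM in an average septic library. The muscle fibre markers Acta1, Ckm, Myh4, Tnnt3, Mylpf and Pvalb summed to 135714 to 159329.9 CPM in controls and 58759 to 83629.9 CPM in sepsis, so muscle RNA was abundant in all 8 libraries.

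Neutrophils are short-lived phagocytes made in the bone marrow. They pack antimicrobial proteins into granules in a fixed order as they mature, so the genes of azurophil (primary) granules are transcribed in early precursors, those of specific granules later, and those of gelatinase granules later still. Calprotectin, the heterodimer of S100A8 and S100A9, is an abundant protein of the neutrophil cytosol that binds calcium, zinc and manganese, and its release signals through Toll-like receptor 4 and the receptor AGER. Resting muscle holds few neutrophils, which enter it during inflammation or injury.

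The upstream sequences of the 4 members with the most septic reads are shown because these genes were high together in all 3 septic libraries. They are the 250 bases before the annotated start of each gene, from RefSeq on build GRCm38.p6, an earlier build than the one used for the counts, and all 9 members matched that table by symbol. Capitals mark matches, on either strand, to the TATA box letters TATAAA and to the letters TTNNGNAA, a loose pattern for the C/EBP factors that act in granulocyte maturation. S100a8 lies at chr3:90668821-90669070 on the plus strand, S100a9 at chr3:90695722-90695971 on the minus strand, Ngp at chr9:110419558-110419807 on the plus strand and Retnlg at chr16:48872358-48872607 on the plus strand.
S100a8: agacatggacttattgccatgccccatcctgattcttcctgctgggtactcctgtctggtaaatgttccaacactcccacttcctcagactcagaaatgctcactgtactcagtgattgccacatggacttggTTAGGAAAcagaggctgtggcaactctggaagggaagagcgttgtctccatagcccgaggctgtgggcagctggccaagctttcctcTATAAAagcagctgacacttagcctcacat
S100a9: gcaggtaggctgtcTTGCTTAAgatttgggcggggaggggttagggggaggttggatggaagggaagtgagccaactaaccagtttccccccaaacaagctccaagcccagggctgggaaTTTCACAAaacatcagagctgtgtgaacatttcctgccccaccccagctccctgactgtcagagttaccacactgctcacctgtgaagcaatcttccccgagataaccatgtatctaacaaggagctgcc
Ngp: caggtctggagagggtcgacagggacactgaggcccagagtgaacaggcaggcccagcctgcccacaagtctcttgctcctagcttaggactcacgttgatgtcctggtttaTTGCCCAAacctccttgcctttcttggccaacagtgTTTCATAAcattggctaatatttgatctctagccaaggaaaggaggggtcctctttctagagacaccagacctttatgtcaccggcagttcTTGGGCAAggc
Retnlg: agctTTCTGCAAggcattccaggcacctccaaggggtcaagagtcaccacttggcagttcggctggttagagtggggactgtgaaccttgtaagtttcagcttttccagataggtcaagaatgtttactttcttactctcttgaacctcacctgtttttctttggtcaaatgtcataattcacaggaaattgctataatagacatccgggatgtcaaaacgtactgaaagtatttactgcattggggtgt

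Each of these 4 windows held the C/EBP letters, with 3 matches upstream of Ngp, 2 upstream of S100a9 and 1 each upstream of S100a8 and Retnlg. Over all members 6 of 9 windows held them, against 36.8% of 32851 promoter windows of the same length. TATAAA was found upstream of S100a8, at position -30 from the start, and of Il1b, at position -31, against 12.4% of all windows. The letters TTCNNNGAA, a pattern for STAT factors, were in 0 of 9 member windows and 7.02% of all windows. GAGGAAG, a pattern for the myeloid factor PU.1, was in 2 of 9 and 10.6%. A match is a description of letters, not a shown binding site. In RefSeq the genes S100a8 and S100a9 are neighbours on chromosome 3 with 0 protein-coding genes between them, while Camp, Ngp and Ltf lie on chromosome 9 with 8 coding genes between Camp and Ngp and 20 between Ngp and Ltf.

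The calprotectin genes carried most of the member reads in septic muscle. S100a8 (ENSMUSG00000056054) had 1, 0, 0, 0 and 2 reads in controls 1 to 5 and 125, 350 and 346 reads in sepsis 1 to 3. S100a9 (ENSMUSG00000056071) had 0, 1, 0, 0 and 1 reads in controls and 85, 204 and 223 in sepsis. Both were at or near 0 in every control and high in every septic library, with no overlap, and sepsis 1 held the lowest level of the 3. In CPM, S100a8 was at 33.1, 73.2 and 78.7 in sepsis 1 to 3, with a mean of 61.7 ± 24.9 (SD, n = 3) against 0.182 ± 0.280 in controls (n = 5). S100a9 was at 22.5, 42.7 and 50.7 CPM, with a mean of 38.6 ± 14.5 against 0.126 ± 0.173. The ratio of S100a8 reads per scaled library, sepsis over control, rested on 3 control reads and was 339.7 with a 95% counting interval of 116 to 1650.4. Without control 5, which held 2 of those 3 reads, it was 817. For S100a9 the ratio was 318 (87.5 to 2631), and it was 508 without control 2 and 509.7 without control 5. Such intervals cover counting error only.

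The 3 specific granule members had 0 reads in all 5 controls. Ngp (ENSMUSG00000032484), which encodes neutrophilic granule protein, had 19, 23 and 29 reads in sepsis 1 to 3, or 5.03, 4.81 and 6.59 CPM. Its levels were close to each other across the septic libraries, at 5.48 ± 0.971 CPM (n = 3), and did not share the low value of S100a8 in sepsis 1. Camp (ENSMUSG00000038357), the precursor of the antimicrobial peptide CRAMP, had 1, 4 and 7 septic reads. Ltf (ENSMUSG00000032496), which encodes the iron-binding protein lactoferrin, had 2 in each septic library. Taking 3 reads over the 5 controls as the upper limit that a count of 0 allows gives 0.187 CPM. The observed septic level lay 29.4-fold above that limit for Ngp, 4.96-fold for Camp and 2.48-fold for Ltf. The lower ends of their counting intervals, which include septic counting error, were 23.3, 3.45 and 1.46. The observed level of Camp lay 3.13-fold above the limit without sepsis 3, which held 7 of its 12 reads. Retnlg (ENSMUSG00000022651), a resistin-like gene expressed by mature neutrophils, also had 0 control reads and had 13, 29 and 24 septic reads. That is 4.99 ± 1.37 CPM, 27.3-fold above the same limit, with sepsis 1 again lowest. The lower end of its counting interval was 21.6.

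The receptor and cytokine members had few reads in either group. Cxcr2 (ENSMUSG00000026180), the receptor for the chemokines that draw neutrophils into tissue, had 1, 1, 1, 1 and 0 reads in controls 1 to 5 and 4, 13 and 4 in sepsis. Its groups did not overlap, at 0.250 ± 0.143 CPM in controls and 1.56 ± 1.0 in sepsis, and sepsis 2 stood above the other septic libraries. The read ratio of 6.52 (counting interval 2.20 to 26.1) was 3.95 without sepsis 2. Csf3r (ENSMUSG00000028859), the receptor for granulocyte colony-stimulating factor, had 1, 0, 0, 2 and 0 control reads and 1, 4 and 0 septic reads. The groups overlapped, and the ratio of 2.07 had a counting interval of 0.402 to 13.3, so a difference was not detectable at this depth. Leaving out control 4 gave 5.16 for that ratio, leaving out sepsis 3 gave 3.13, and leaving out sepsis 2 turned it to 0.658. Il1b (ENSMUSG00000027398), the inflammatory cytokine interleukin-1 beta, had 1 read in control 1 and none in the other controls, and 0, 3 and 4 reads in sepsis 1 to 3. Its groups overlapped as well, since sepsis 1 had no read, with a ratio of 8.69 (1.12 to 392). Without sepsis 3 the ratio was 5.64. Without control 1 no control read is left, and the observed septic level lay 2.24-fold above the floor of 3 reads.

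**Figure D1:**
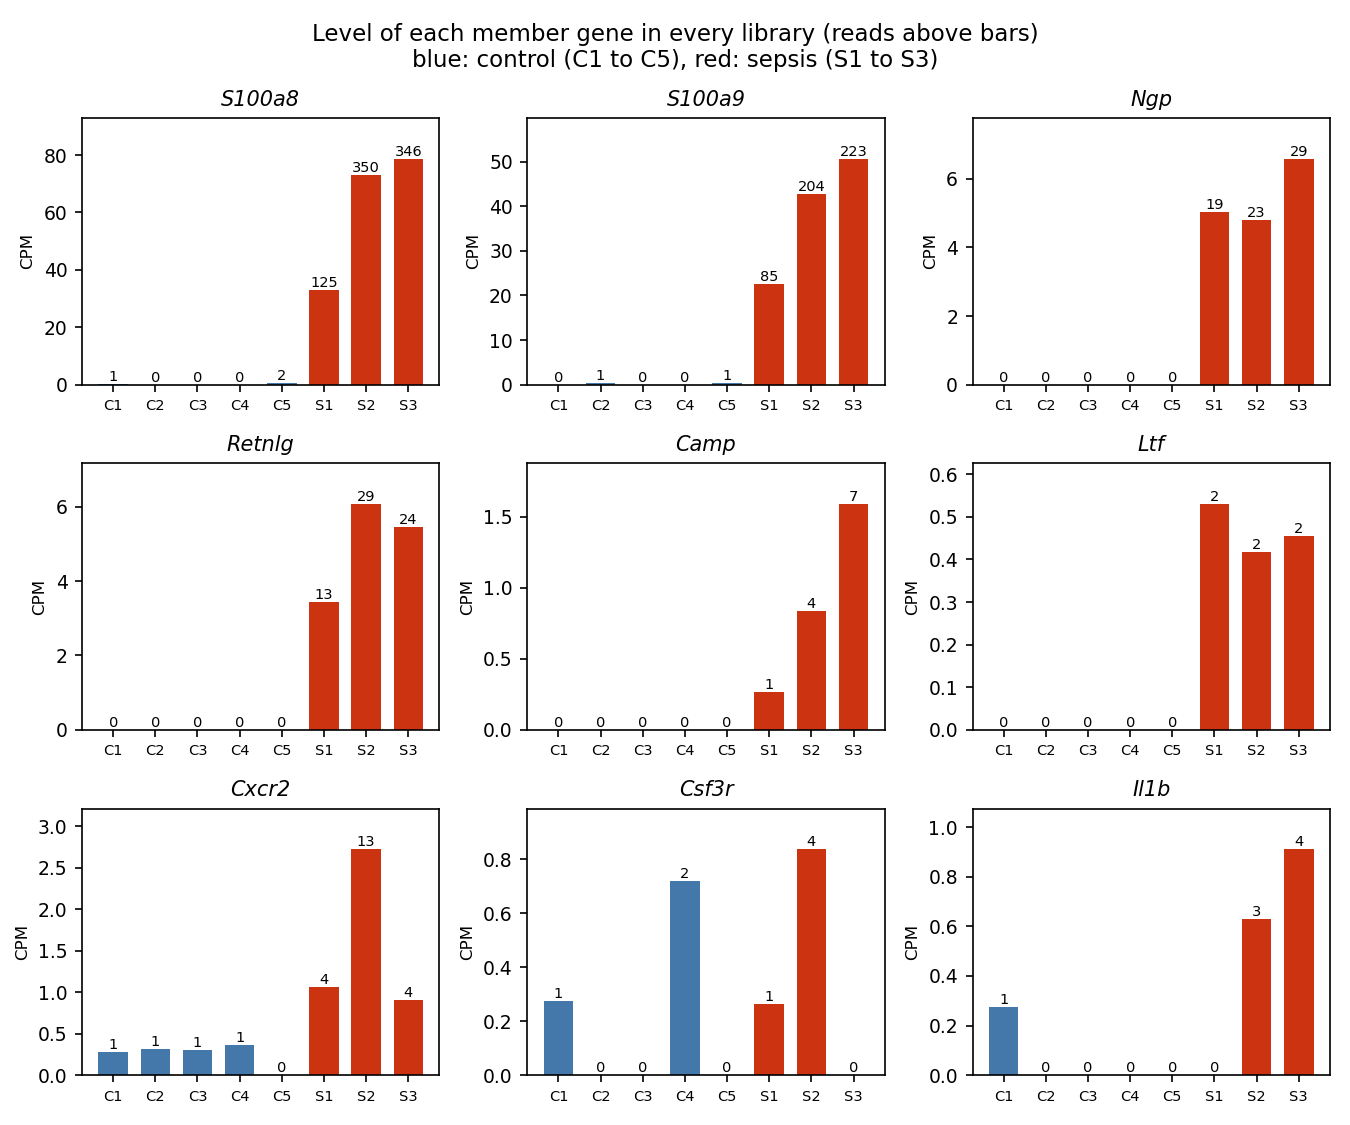
Level of each of the 9 genes in controls 1 to 5 (C1 to C5, blue) and sepsis 1 to 3 (S1 to S3, red), as bars in CPM with the read count printed above each bar; each panel has its own axis from 0. The controls hold at most 2 reads of any member, while S100a8 reaches 350 reads and S100a9 reaches 223 in a septic library.

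In all, 7 of 9 members had groups that did not overlap, with sepsis higher, where 15.2% of all 16368 rows with a read did. Nothing is read from this, because the members were chosen on these values. Only 4 members, S100a8, S100a9, Ngp and Retnlg, passed the expression filter for testing, and they passed through the septic libraries alone. The plot of each member by library shows this split between 4 genes with 66 to 821 septic reads and 5 genes with 21 or fewer. Rows with at most 3 control reads over the 5 libraries and at least 50 septic reads over the 3 numbered 17 of 16368 (0.104%). Those 4 members were among them, but nothing is read from this either, as the members were chosen on these totals. The other rows included the secreted defence genes Lcn2 and Slpi, the chemokine genes Cxcl13 and Cxcl1, and the hepcidin gene Hamp2.

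Summed, the 9 genes had 13 reads in controls and 1521 in sepsis. The sums were 4, 2, 1, 3 and 3 reads in controls 1 to 5 and 250, 632 and 639 in sepsis 1 to 3. The ratio of reads per scaled library was 145 (counting interval 84.7 to 273). On the CPM scale the means were 0.813 ± 0.345 against 115 ± 42.4, with 66.2, 132 and 145 CPM in sepsis 1 to 3. The lowest septic library therefore lay far above the highest control, at 1.11 CPM. Without S100a8 and S100a9 the other 7 genes summed to 0.504 ± 0.439 CPM in controls and 14.3 ± 3.19 in sepsis, from 8 and 188 reads, with 10.6 CPM in the lowest septic library and 1.08 in the highest control. In bulk RNA, more cells of a type and more RNA per cell cannot be told apart, and this holds for every level given here.

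S100a8 and S100a9 made up most of the member reads in each of the 3 septic libraries. Shares were not tested for a difference among libraries, and overlapping intervals do not exclude one. S100a8 made up 50% of member reads in sepsis 1 (exact binomial 95% interval 43.6 to 56.4), 55.4% in sepsis 2 (51.4 to 59.3) and 54.1% in sepsis 3 (50.2 to 58.1). S100a9 made up 34.0%, 32.3% and 34.9%. Reads of S100a8 exceeded those of S100a9 by a ratio of 1.47, 1.72 and 1.55, and the intervals of the S100a8 share of calprotectin reads overlapped (52.6 to 66.2%, 59.0 to 67.2% and 56.7 to 64.8%). These libraries read about 1 fragment per transcript end, so levels of different genes are compared without a length correction. Ngp had 7.60% of member reads in sepsis 1 (4.64 to 11.6), 3.64% in sepsis 2 (2.32 to 5.41) and 4.54% in sepsis 3 (3.06 to 6.45), and these intervals overlapped too. Cxcr2 made up 1.60% (0.438 to 4.05), 2.06% (1.10 to 3.49) and 0.626% (0.171 to 1.59), from 4, 13 and 4 reads.

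**Figure D2:**
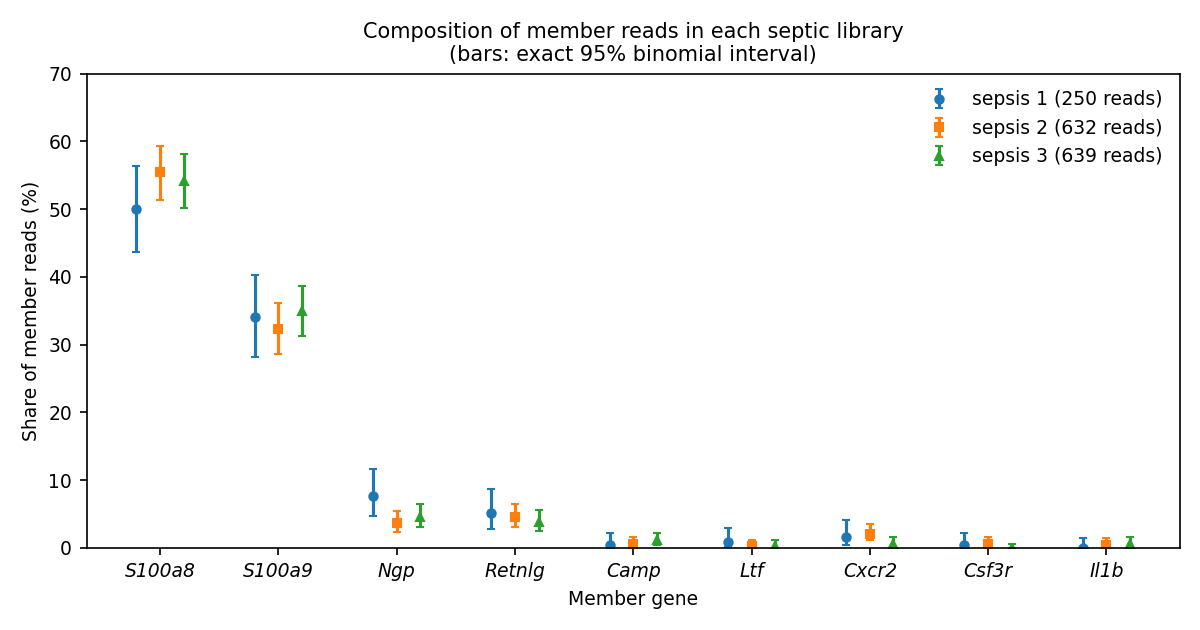
Share of all member reads (%) taken by each of the 9 genes in each septic library, with the exact 95% binomial interval as the bar and the library's number of member reads in the key. S100a8 takes 50 to 55.4% and S100a9 takes 32.3 to 34.9% in the 3 libraries.

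Other granule genes are given by granule class. None of the 7 azurophil granule genes had a read in controls, and 5 of them, including Mpo, which encodes myeloperoxidase, and the protease genes Elane and Ctsg, had none in sepsis either. Prtn3, encoding proteinase 3, had 0, 3 and 2 septic reads and Prss57 had 2, all in sepsis 1. Over the 3 septic libraries a count of 0 allows up to 3 reads, where Ngp had 71. Of 13 other specific and gelatinase granule genes 5 had enough reads to be tested, of which 4 rose and 0 fell, with a median log2 fold change of 2.82 against 0.01 over all 9810 genes tested. In the same test 25.2% of all genes tested rose and 25.2% fell, and the counts of every list below stand beside these shares. Lcn2, encoding the iron-scavenging protein lipocalin-2, had 2 control reads and 189, 179 and 658 septic reads, a ratio of 637 (176 to 5264). Sepsis 3 held 658 of its reads, and its fitted fold was 273 without that library against 498 with it. Slpi, a protease inhibitor gene, had 3 control reads and 10, 72 and 101 septic reads, a ratio of 75.7 (25.5 to 371), and its fitted fold was 41.0 without sepsis 3 against 62.2 with it. Other cells also make both proteins. The filter asked for 3 libraries at a cut of 2.77 CPM, computed on unscaled library totals. Lcn2, Slpi and Itgam had fewer than 3 controls at that cut and so were tested through their septic reads, as were 10.1% of all genes called higher. Their p-values are no independent support. The count of higher genes and the median of this list include them and are no independent support either. Itgam, the integrin subunit CD11b of neutrophils and macrophages, rose 7.06-fold (log2 fold change 2.82, SE 0.35, edgeR adjusted p = 2.27e-05), with 0.635 to 3.32 CPM in controls and 9.78 to 15.7 in sepsis. Lyz2, the lysozyme gene shared with macrophages, rose with a log2 fold change of 1.86 (SE 0.52, edgeR adjusted p = 0.0196), and its call was lost without sepsis 2, at 1.14 with edgeR adjusted p = 0.0623. Hp, encoding haptoglobin, did not pass (log2 fold change 0.25, SE 0.48), and had -0.71 without sepsis 3.

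Among the granule genes under the filter, the collagenase gene Mmp8 had 1 control read and 4, 15 and 21 septic reads, a ratio of 49.6 (8.41 to 2009). Chil3, a chitinase-like gene of neutrophils and alternatively activated macrophages, had 0 control reads and 2, 3 and 12 in sepsis. Mmp9, the gelatinase gene, had 24 and 33 reads, with a ratio of 1.71 (0.978 to 3.02), and Cd177 and Olfm4 had 0 control and 3 septic reads each. The counting interval of Mmp8 thus lay above 1, while that of Mmp9 included 1.

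**Figure D3:**
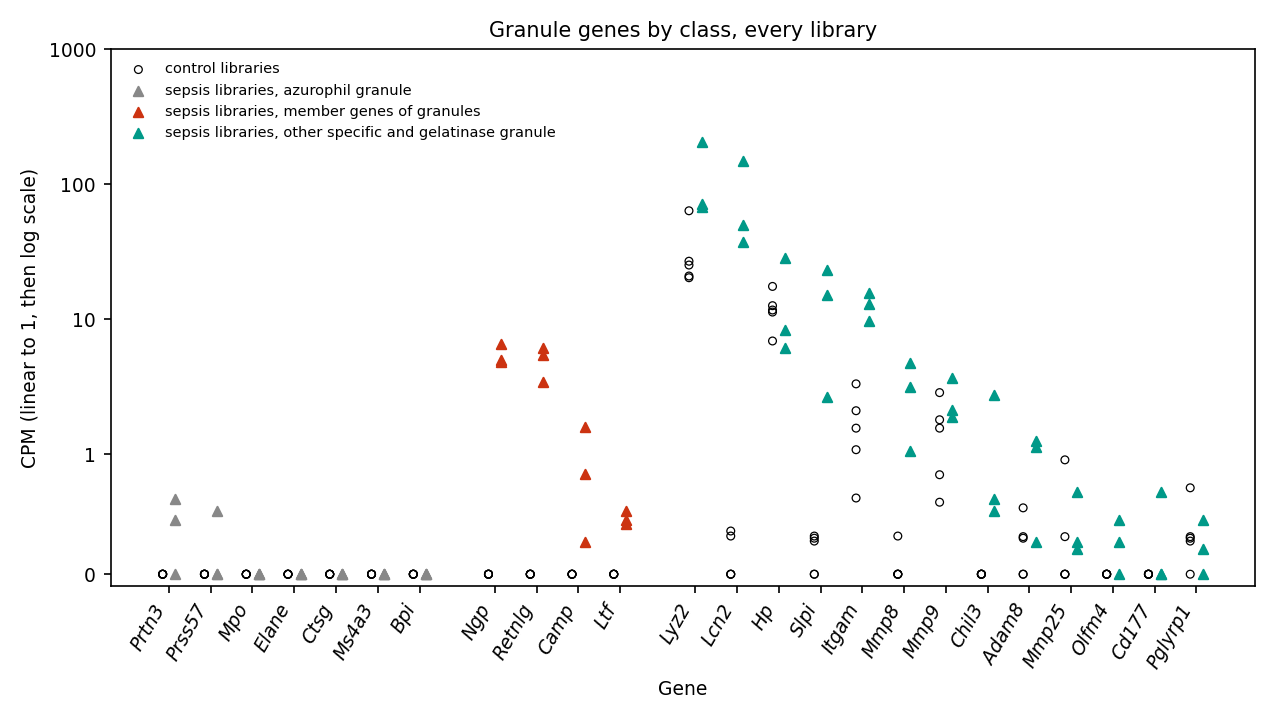
CPM of granule genes in every library on an axis that is linear to 1 and logarithmic above, with controls as open circles and septic libraries as triangles coloured by granule class. The azurophil granule genes stay below 1 CPM in sepsis, while Ngp and Retnlg lie between 3.44 and 6.59 CPM in sepsis and at 0 in every control.

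Surface receptor genes were thinly covered. Of 21 receptor genes besides Cxcr2 and Csf3r, 3 were tested, and 2 rose, Fcgr3 and Itgb2. That number was 1 without control 5 or sepsis 2 and 4 without sepsis 1. Fcgr3, an antibody Fc receptor of neutrophils, macrophages and natural killer cells, rose 3.39-fold (log2 fold change 1.76, SE 0.37, edgeR adjusted p = 0.00156). Itgb2, the shared chain of the leukocyte integrins, had 1 control at the filter's cut. Its log2 fold change was 1.69 (SE 0.56, edgeR adjusted p = 0.0227), with 2.35 without control 1, and 1.51 without control 5 and 1.45 without sepsis 2, where its call was lost at edgeR adjusted p = 0.0536 and 0.0865. Cxcr4, the receptor that holds neutrophils in the marrow, did not pass at 1.79 (SE 0.72, edgeR adjusted p = 0.0602), and passed without sepsis 1 at 2.20 (edgeR adjusted p = 0.0174). With all 8 libraries it passed in DESeq2, at 1.81 (adjusted p = 0.0434), and in edgeR with library totals, at 2.23 (adjusted p = 0.0259). Without sepsis 2 its fold was 2.27 against 3.46 (edgeR adjusted p = 0.249), and without control 5 it was not tested. Of the 18 untested genes 16 had more reads per scaled library in sepsis, 0 had more in controls and 2 had no read, where 48.4% of all 6558 untested rows with a read had more in sepsis. For 10 of these 16 the counting interval of the ratio lay above 1, as it did for 8.54% of those rows. The formyl peptide receptor gene Fpr2 had 2 control reads and 4, 16 and 16 septic reads, and its relative Fpr1 had 0 and 3, 6 and 4. The activating Fc receptor gene Fcgr4 had 1 control read and 8, 9 and 5 septic reads. Ly6g, the surface marker by which mouse neutrophils are usually gated, had 0 control reads and 2 septic reads.

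Cytosolic and enzyme genes of neutrophils were mostly under the filter as well. Of 18 listed 17 matched a row and 4 were tested, with 3 higher and 0 lower past the threshold. Of all genes tested 25.2% were higher. The median log2 fold change of the 4 was 1.79. Wfdc17, a small secreted inhibitor gene of myeloid cells, rose 11-fold (log2 fold change 3.46, SE 0.59, edgeR adjusted p = 0.000688), with 27, 106 and 52 septic reads against 20 over the controls. Control 1 held 12 of those 20, and without it the fold was 20.5. Wfdc21 rose 4.30-fold, or 7.62-fold without control 1, and Alox5ap, needed for leukotriene synthesis, rose 2.79-fold. Wfdc17 and Wfdc21 had fewer than 3 controls at the filter's cut and were tested through their septic reads. The count and median of the cytosolic list include them and are no independent support. The stefin genes Stfa1, Stfa2 and Stfa2l1, protease inhibitors of mature neutrophils, each had 0 control reads and had 17, 16 and 19 septic reads. Stefin genes are near-identical copies, so the split of reads among them is uncertain. Acod1, which makes itaconate, had 0 and 14 reads, and Padi4, which citrullinates histones in neutrophil extracellular traps, had no read in any library. Of the 6 genes of the phagocyte NADPH oxidase 3 were tested and all 3 rose, Cyba with a log2 fold change of 1.16 (SE 0.34), Cybb with 1.35 (SE 0.50) and Ncf1 with 1.38 (SE 0.43). The number was 1 without sepsis 2 or sepsis 3, and the call of Cybb at edgeR adjusted p = 0.0434 was lost without any 1 of controls 2 to 5, sepsis 1 or sepsis 2, at log2 fold changes of 1.182, 1.21, 1.23, 1.30, 1.28 and 1.01. Without control 1, where Cybb was high at 10.2 CPM, the log2 fold change was 1.99 (edgeR adjusted p = 0.00107). The call of Cyba was lost without sepsis 3, at 0.91, and that of Ncf1 without sepsis 2, at 1.24, or sepsis 3, at 1.03. Cybb and Ncf1 had fewer than 3 controls at the filter's cut. Macrophages also carry this enzyme.

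Transcription factor genes of the granulocyte line were split. Of 8 listed 6 were tested, and 4 rose, where 25.2% of all genes tested rose. Cebpd rose from 11.1 to 46.5 CPM in controls to 362, 99.2 and 440.0 CPM in sepsis 1 to 3, a log2 fold change of 3.71 (SE 0.60, edgeR adjusted p = 0.00170). Cebpb rose 2.91-fold, Runx1 6.62-fold and Spi1, which encodes PU.1, 3.96-fold. Without control 1, where Runx1 was high at 14.4 CPM, its fold was 12.0. Runx1 and Spi1 had fewer than 3 controls at the filter's cut and were tested through their septic reads. Cebpb and Cebpd are also induced by inflammation in other cell types. Cebpe had 1 read, in sepsis 2, and Gfi1 had none in any library. Cebpa had a log2 fold change of 0.01 (SE 0.31), whose sign changed with the library left out, from -0.19 without sepsis 3 to values above 0, and Cebpg had 0.22 (SE 0.13).

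The signals that recruit neutrophils were mostly below the filter. None of 10 chemokine and growth factor genes was tested, and 2 were called higher without sepsis 1. Cxcl1 had 3 control reads and 3, 17 and 38 septic reads, a ratio of 24.0 (7.81 to 119.7), and Cxcl2 had 4 and 3, 12 and 36, a ratio of 15.8 (5.82 to 60.3). Both are ligands of Cxcr2, and sepsis 3 was high and sepsis 1 low for both. Cxcl5, another ligand of Cxcr2, went the other way, with 20 control reads and 3 septic reads, a ratio of 0.186 (0.0354 to 0.628). Csf3, the granulocyte growth factor gene, Csf2 and Il17a had no read in any library, and Il6 had 1 and 2.

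In the interleukin-1 pathway around Il1b, 9 of 18 genes were tested, and 5 rose and 0 fell, where 25.2% of all genes tested rose. The median log2 fold change of this list was 1.06 against 0.01 over all genes tested. The inflammasome adaptor gene Pycard rose 6.63-fold (log2 fold change 2.73, SE 0.43, edgeR adjusted p = 0.000150) and had 20, 20 and 21 septic reads. The receptor kinase genes Irak1 and Irak2 rose 2.08-fold and 2.28-fold, Casp4 6.61-fold and the adaptor gene Myd88 3.05-fold. The fold of Casp4 was 12.1 without control 1. Pycard and Casp4 reached the filter's cut in 0 controls and 3 septic libraries, so they were tested through their septic reads. The count and median of this list include them and are no independent support. The signalling receptor gene Il1r1 had 0.46 (SE 0.29) and did not pass. The decoy receptor gene Il1r2 had 7 control reads and 18, 7 and 45 septic reads, a ratio of 12.4 (5.72 to 32.0), and Nlrp3 had 1 and 3 reads. Il1a, the other interleukin-1 agonist gene, had 3 control reads, all in control 2, and none in sepsis.

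The other genes of the S100 family ranged from no read to 127 CPM in sepsis, the level of S100a6. Of 13 other S100 genes 8 were tested, and 1 rose and 3 fell, with a median log2 fold change of 0.14. S100a1, a calcium sensor of striated muscle, fell from 103 ± 8.94 to 44.4 ± 8.36 CPM (log2 fold change -1.21, SE 0.14, edgeR adjusted p = 1.45e-05). S100b, a glial and Schwann cell gene, and S100a16 fell by 1.91 and 0.69 on the log2 scale, and S100a10 rose with 0.63. Higher calls numbered 3 without control 1, 2 without sepsis 1 and 0 without sepsis 2, where S100a10 had 0.49. With library totals in place of TMM 4 were higher, and S100a16 no longer passed at -0.28. The difference between S100a8 or S100a9 and these genes was not tested.

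Of 6 genes for receptors of calprotectin and their partners 3 were tested, and 2 rose and 1 fell. Of all genes tested 25.2% rose and 25.2% fell. Tlr4 rose 3.37-fold, from 1.5 ± 1.0 to 5.24 ± 2.10 CPM (log2 fold change 1.75, SE 0.47, edgeR adjusted p = 0.00682), and reached the filter's cut in 0 controls, so it was tested through its septic reads. Its co-receptor genes Cd14 and Ly96 had 15 and 35 and 7 and 13 reads in control and sepsis, under the filter. Ager had 2 and 10 reads. Cd36, a scavenger receptor and fatty acid transporter, rose 2.11-fold and Bsg, encoding basigin, fell by 0.83 on the log2 scale. The other resistin family genes are given beside Retnlg. Retnla, made by alternatively activated macrophages and fat, fell 8.39-fold, from 24.9 ± 5.52 to 2.92 ± 0.423 CPM (log2 fold change -3.07, SE 0.25, edgeR adjusted p = 8.07e-07). Retn, the adipocyte resistin gene, had -0.93 (SE 0.41) and, of the alternatives run, passed only without control 5, at -1.13 (edgeR adjusted p = 0.0169), while Retnlb had no read.

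Markers of other cell types were summed in each library for 12 lists. The sums were compared with an exact permutation test over libraries, two-sided, in which the smallest possible p is 0.0179. Macrophage markers were at 60.9 to 140.2 CPM in controls and 257 to 349.6 in sepsis, a ratio of 3.39 with permutation p = 0.0179 and adjusted p = 0.0714 over the 12 lists, higher in 3 of 3 septic libraries. Much of the difference came from Cd68, a lysosomal protein gene, with means of 3.58 CPM in controls and 109 in sepsis. The mean sums were 85.0 and 289 CPM, and the sum without Cd68 was not tested. Of 7 tested macrophage genes 5 rose, where 25.2% of all genes tested rose. Among the 5 were Cd68 with 29.3-fold and Cd163, a haemoglobin scavenger receptor gene, with 3.85-fold. The number of macrophage genes that rose was 3 without sepsis 2. Csf1r and Mrc1 did not pass, at log2 fold changes of 0.21 and 1.15 (edgeR adjusted p = 0.468 and 0.0891). Pan-leukocyte markers were at 10.4 to 39.5 CPM in controls and 25.4 to 71.3 in sepsis, which overlapped, with exact permutation p = 0.0714 and adjusted p = 0.122. Of 4 tested pan-leukocyte genes 1 rose, Ptprc, with a log2 fold change of 1.5 (SE 0.41, edgeR adjusted p = 0.00825), and 3 rose without control 1 and 3 without sepsis 1. Ptprc and Cd68 had fewer than 3 controls at the filter's cut. Control 1 was high in both marker lists, at 39.5 CPM for pan-leukocyte genes and 140.2 for macrophage genes, while its 9 member genes summed to 1.11 CPM. Sepsis 1 had fewer pan-leukocyte CPM than control 1, at 25.4, and 66.2 CPM of the members.

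Red cell markers differed widely among controls. They ranged from 43.8 to 951.0 CPM in controls and from 14.2 to 89.3 in sepsis, with overlap, and with exact permutation p = 0.143 and adjusted p = 0.171. The members summed to 1.11, 0.625, 0.3, 1.08 and 0.953 CPM in controls 1 to 5. Red cell markers in the same libraries were at 121, 586, 43.8, 949.7 and 951.0 CPM. The red cell marker Slc4a1 had no read in any library. Monocyte markers were at 31.4 to 90.4 CPM in controls and 11.9 to 29.7 in sepsis. That list was carried by Fn1, Vcan and Ccr2, whereas Ly6c2 had 1 and 5 reads and Plac8, expressed in monocytes and neutrophils, had 2 and 28. The difference in that sum had exact permutation p = 0.125 and adjusted p = 0.167. Keratinocytes can also express calprotectin, and of 7 keratinocyte genes 5, Krt5, Krt14, Krt1, Krt15 and Dsg3, had no read in any library, while the sum was at 4.2 to 7.2 CPM in controls and 2.5 to 4.77 in sepsis (exact permutation p = 0.0357, adjusted p = 0.107). T and natural killer cell, B cell, mast cell, eosinophil, platelet and endothelial sums had adjusted p-values between 0.0714 and 0.607, and the muscle fibre sum 0.0714, in the exact permutation test. The eosinophil sum, at 0.318 to 0.625 CPM in controls and 1.06 to 4.18 in sepsis, came mostly from Ear2, while Epx, Siglecf and Ccr3 had no read. The part that each of these cell types has in the member levels was not tested.

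**Figure D4:**
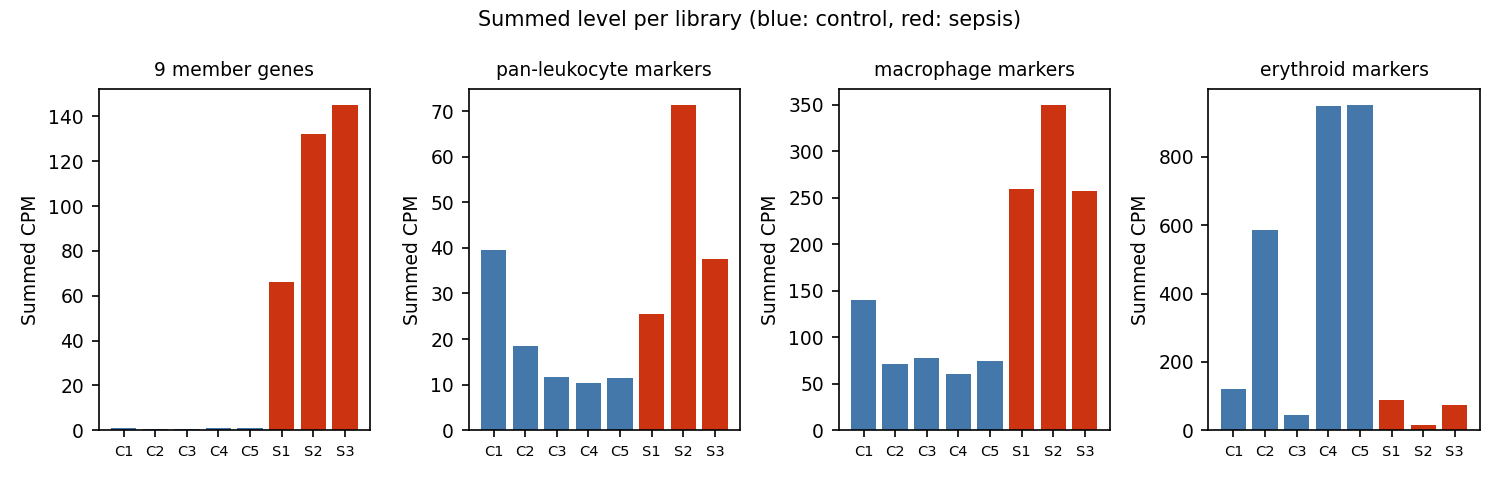
Summed CPM per library for the 9 member genes and for pan-leukocyte, macrophage and erythroid markers, with controls (C1 to C5) in blue and septic libraries (S1 to S3) in red. Control 1 reaches 39.5 CPM of pan-leukocyte markers, above sepsis 1 at 25.4, while its member sum is 1.11 CPM against 66.2 in sepsis 1.

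Genes with a distribution over the 8 libraries closest to that of the summed members were found by distance. The distance is the sum of absolute differences in each library's share of a gene's CPM, divided by 2, so that 0 is the same distribution and 1 is none in common. Sepsis 1, 2 and 3 held 19.0%, 38.0% and 41.8% of the summed member CPM. Among 10226 other genes with at least 50 reads the closest were Saa3, an acute-phase apolipoprotein gene, at 0.062, AA467197 at 0.088, Ankrd1, a stretch-responsive muscle gene, at 0.112, Perp at 0.121 and Adamts7, a metalloprotease gene, at 0.122. Hamp2, Mustn1, Slpi, Cd68 and Krt80 followed at 0.145 to 0.157. Saa3 had 665, 1389 and 1169 reads in sepsis 1 to 3, against 19 over the controls. Of the members themselves S100a8 and S100a9, which make up most of the sum, lay at 0.020 and 0.021, Retnlg at 0.065 and Ngp at 0.116. Lcn2, with its high value in sepsis 3, lay at 0.232, Itgam at 0.258 and Lyz2, with its high value in sepsis 2, at 0.330. All these genes share the same libraries and depths, so the distances describe these 8 libraries only.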

How the data were processed

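Raw read counts per gene were deposited by the authors, 1 column per library with no pooling. Per the labels' protocols, 25 ng of total RNA went into QuantSeq libraries, which read the 3′ ends of transcripts, and per the submitters' processing notes the build was GRCm39. The sources used here do not give the aligner, counting tool, strand setting or annotation. Library totals were 3086277 to 4016329 counts. EdgeR 4.0.16 (R 4.3.3) tested sepsis against control on all 8 libraries with TMM scaling, the expression filter (minimum count 10, minimum total 15), the robust quasi-likelihood F test and Benjamini-Hochberg adjustment over 9810 genes, with a threshold of 0.05. SE is the absolute log2 fold change over the square root of F. CPM used TMM-scaled library sizes. Read ratios have exact 95% binomial intervals, and a count of 0 was given a floor of 3 reads per group. Alternatives were DESeq2 1.42.0, other scalings, no filter, a replicate block and leaving out each library.

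The members and the 23 gene lists (123 pathway and 75 marker genes) were chosen with earlier results of these data known. Text examples follow a rule: all members, up to 3 tested genes per list with the smallest p, marker genes without reads, and the 10 genes closest in distribution. Chosen after their values were seen were Lyz2, Hp, Spi1, Casp4, Myd88, Il1r1, Cebpa, Cebpg, S100a6, S100a10, Csf1r, Mrc1 and Cxcl13. So were the genes under the filter named with reads. Sequences came from RefSeq, build GRCm38.p6. Antisense or overlapping genes could not be told apart without the strand setting.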

Additional observations from a re-analysis of the deposited data

Results flagged for a closer look

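Dixon's criterion for 5 values was applied to 74 control groups. These share the same 5 libraries, include sums beside their own genes, and some rest on a single read. The count below therefore has no known chance rate. In 18 of the 74 groups 1 library stood apart. Control 1 was the high one in most: its summed CPM was 39.5 for pan-leukocyte markers (others 10.4 to 18.4), 140.2 for macrophage markers (60.9 to 77.7) and 90.4 for monocyte markers (31.4 to 37.8). Its single genes were Fn1 at 63.0 CPM (17.5 to 25.3), Laptm5 at 17.1 (4.32 to 6.57), Ptprc at 5.53 (1.59 to 2.50), Cybb at 10.2 (2.19 to 3.81), Cyba at 7.74 (2.86 to 4.06), Runx1 at 14.4 (2.22 to 4.32), Wfdc21 at 3.04 (0.300 to 1.08) and Ankrd1 at 76.6 (12.5 to 27.6). Of the members, Il1b had its single control read in control 1, at 0.276 CPM against 0, and Cxcr2 had 0 in control 5 against 0.276 to 0.360 in the others. AA467197 had its single control read in control 5, at 0.318 CPM. Elsewhere Cebpb was low in control 2, at 17.2 CPM (27.0 to 31.0), Tpsb2 was high in control 4, at 6.84 (4.13 to 4.50), and Krt10, which carries the keratinocyte sum, was low in control 3, at 4.2 (6.57 to 6.84 for the gene and 6.57 to 7.20 for the sum).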

How the results depend on the processing

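The summed member level in sepsis stayed between 97.1 and 139 CPM under other scalings and with any library left out, and fell to 14.3 without S100a8 and S100a9. Of the single member ratios, which were recomputed after the data were seen, that of Csf3r ranged from 0.658 (without sepsis 2) to 5.16 (without control 4), crossing 1. With library totals alone 4251 genes were higher and 1392 lower, or 75.3% higher against 50.1%, and the median over all tested genes was 0.43 on the log2 scale against 0.01. The interleukin-1 list then had 8 higher and the S100 list 4, and Ebf1 had 0.12 instead of -0.31. With no filter on low counts the receptor list had 9 higher, the cytosolic list 10 and the chemokine list 2. The labels do not say whether equal replicate numbers pair the libraries. Correlations of deviations were -0.124, 0.039 and -0.019 for equal numbers 1 to 3, and -0.093 to 0.13 for unlike numbers. So few values cannot settle whether a pairing exists. With the replicate block 1741 genes were higher and 1884 lower, with 1 higher in the receptor list, 0 in the NADPH oxidase list and 0 in the S100 list. With single libraries left out, higher calls ranged from 1 to 4 in the receptor list, 1 to 4 in the oxidase list, 0 to 2 in the chemokine list and 0 to 3 in the S100 list, and lower calls in the resistin list from 1 to 2. The cause of these shifts was not tested. Depth limits Camp, Ltf, Cxcr2, Csf3r and Il1b, which had 21 or fewer septic reads each.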
